A study of Rattus norvegicus with 4 samples.

Results

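Acetylated stretches of the rat genome that were marked in both conditions, but over at least 2 times as many bases after lysolecithin as in vehicle, are described here. The cells were differentiated rat oligodendrocytes, the glia that wrap axons in myelin. Peaks of the vehicle and lysolecithin H3K27Ac lists were pooled, and those at most 1 kb apart were joined into regions. A region was selected on the measured peak lengths themselves: it held peaks of both lists, spanned less than 5 kb, lay on an autosome, and the bases covered by its lysolecithin peaks were at least 2 times those covered by its vehicle peaks. There were 1981 such regions among 19966 shared autosomal regions below 5 kb (9.92%), out of 30610 joined H3K27Ac regions in all. They are called widened regions here. Because the H3K27Ac lists chose them, every H3K27Ac value given for them is a description and no test.

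The study compared 4 chromatin immunoprecipitation sequencing libraries, 1 for each antibody (H3K27Ac from Abcam, Olig2 from Millipore) in each condition. All cultures, vehicle included, came from brain mixed glia grown in serum and then kept for 2 days in B104 medium. Precursors were then expanded in Sato medium with PDGF-AA at 10 ng/ml and bFGF at 20 ng/ml, and then differentiated with 15 nM T3, a thyroid hormone, plus CNTF (10 ng/ml), a neurotrophic cytokine. The treated cultures received lysolecithin (LPC), a detergent-like lipid used to strip myelin, for 6 h. The labels print its concentration as 12.5 mM, and whether that unit is right was not established. Nothing used here states the age, sex or strain of the animals or how many cultures went into a library. Each group is 1 library, so no difference below has a replicate check. The files hold positions only, and the depth of each library is unknown. Genes near a region are not named and the labelled cell type was not checked against marker genes, since no annotation of rn4, the build of the files, was used here.

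Acetylation of lysine 27 of histone H3 is written by the acetyltransferases CBP and p300 and removed by histone deacetylases. It marks promoters and enhancers in use, and the stretch it covers differs from a nucleosome or so beside a regulatory site to broad domains over genes of high activity. Olig2 is a basic helix-loop-helix factor that is required to make the oligodendrocyte lineage and that binds E-box elements, many of them in enhancers. A called peak is the stretch where reads passed a threshold, so its length depends on the spread of the mark and also on depth, enrichment and the caller.

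The LPC H3K27Ac list covered more of the genome than the vehicle list in nearly the same number of peaks (41.7 Mb in 38721 peaks against 34.4 Mb in 38902). Over the 19966 shared regions the LPC peaks covered 1.17 times the bases of the vehicle peaks, and the median ratio of a region was 1.15 (0.20 on the log2 scale). A ratio of 2 is therefore set against a list that was longer as a whole. The mirror group, with at least 2 times as many bases in vehicle, held 322 regions (1.61%). Widened regions thus made up 86.0% of all regions past a ratio of 2 in either direction. With the LPC total scaled down to the vehicle total, 1206 regions were widened and 583 narrowed, and the share was 67.4%. Whether the whole-list difference comes from depth, enrichment or acetylation cannot be told apart here.

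**Figure D1:**
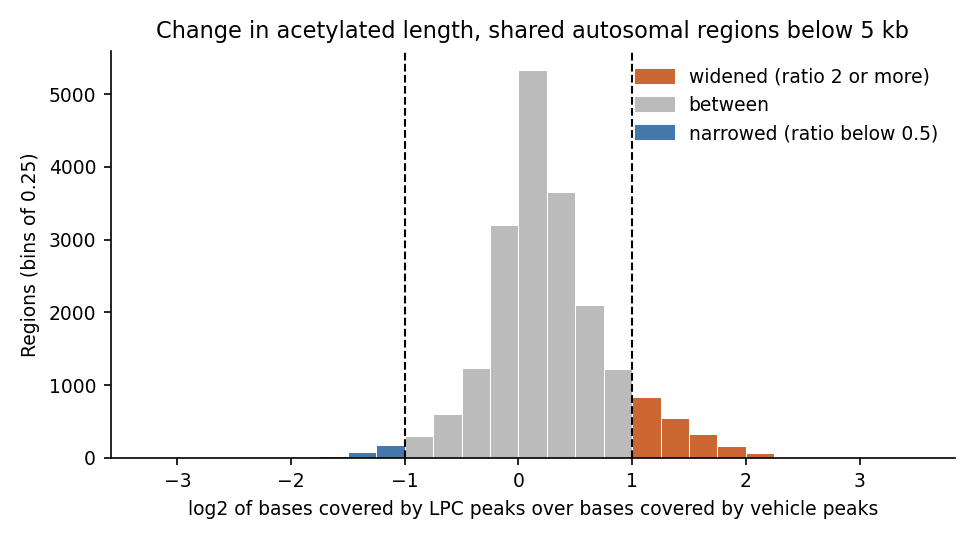
Number of shared autosomal H3K27Ac regions below 5 kb (y axis, bins of 0.25) by the log2 ratio of bases covered by LPC peaks to bases covered by vehicle peaks (x axis), with dashed lines at ratios of 0.5 and 2. The distribution is centred above 0, with a median ratio of 1.15, and the 1981 widened regions form its right tail.

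Widened regions were short in vehicle and of ordinary length after LPC. In vehicle the peaks of a widened region covered a median of 510 bp (quartiles 411 and 646, lowest 183, highest 2288). After LPC they covered 1347 bp (quartiles 1096 and 1698, lowest 460, highest 4668). Regions that did not widen covered 1297 bp in vehicle and 1463 bp after LPC. The medians of both groups therefore lay close together in the LPC list and far apart in the vehicle list. The rule itself favours regions with few bases covered in vehicle. Narrowed regions showed the reverse, with medians of 1209 bp in vehicle and 476.5 bp after LPC. In 951 widened regions (48.0%) the vehicle peaks covered less than 500 bp, against 7.57% of the other regions, and only 113 (5.70%) had 1 kb or more in vehicle.

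Most widened regions lay not far above the limit. Their median ratio was 2.48 (quartiles 2.19 and 2.96), 1023 of them (51.6%) lay below 2.5, 470 (23.7%) reached 3 and 30 (1.51%) reached 5. The last regions inside the limit had a ratio of exactly 2: the one on chromosome 15 (32836153 to 32837676) was covered over 657 bp in vehicle and 1314 bp after LPC, and the one on chromosome 16 (7806064 to 7807065) over 411 and 822 bp. The first outside it were on chromosome 17 (63101418 to 63105860), with 2026 and 4051 bp, and chromosome 3 (9407444 to 9410432), with 1386 and 2771 bp. Between ratios of 1.9 and 2 there were 312 regions, and between 2 and 2.1 there were 280, so regions were about as frequent just outside the limit as just inside it.

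The vehicle part of a widened region was usually a single peak that the LPC peaks contained. A single vehicle peak was present in 1812 of the 1981 regions (91.5%), against 50.5% of the regions that did not widen. No vehicle base lay outside the LPC peaks in 1255 regions (63.4%), against 25.6% of the others. Both shares come from the peak lengths that the rule used. In narrowed regions it was the LPC part that was seldom more than 1 peak, with 2 or more in 7 of 322 (2.17%). The LPC part was 1 peak in 997 regions (50.3%), 2 peaks in 826 (41.7%) and 3 or more in 158 (7.98%). Summed over the widened regions, 1.87 Mb were covered by LPC peaks alone and 1.05 Mb by peaks of both lists. They held 24.1% of all LPC-only bases in shared regions below 5 kb.

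**Figure D2:**
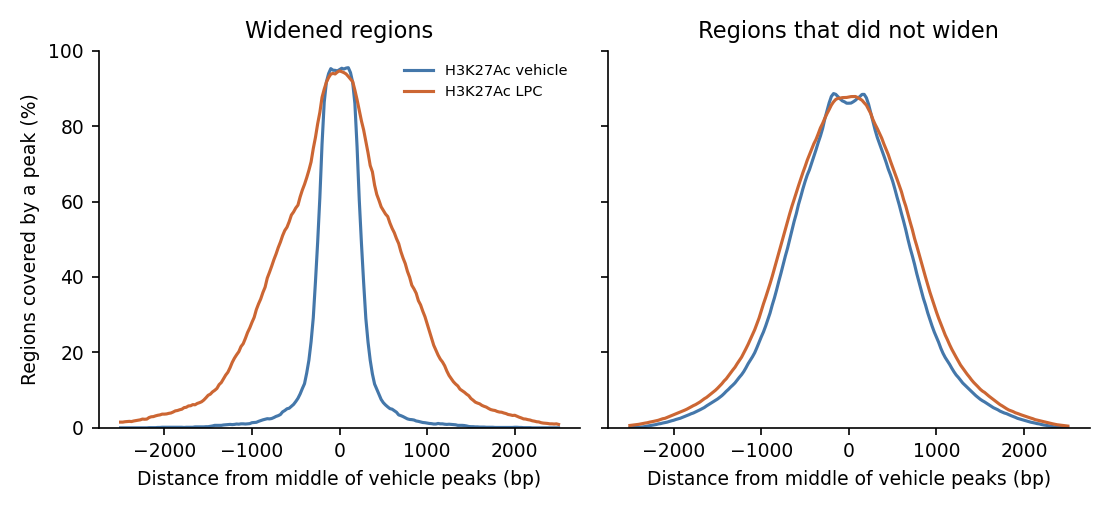
Share of regions covered by an H3K27Ac peak (y axis, percent) by distance in bp from the middle of the region's vehicle peaks (x axis), in vehicle (blue) and after LPC (orange), for widened regions (left) and all other shared autosomal regions below 5 kb (right). At 500 bp to the left of the middle 6.97% of widened regions were covered in vehicle and 58.3% after LPC, whereas the curves of the other regions stood at 65.3% and 69.3%.

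Widened regions gained their bases in 2 ways, by a longer peak over the vehicle peak and by further LPC peaks beside it. In 1060 regions (53.5%) every LPC peak overlapped a vehicle peak. In 873 (44.1%) an overlapping LPC peak was joined by at least 1 LPC peak that touched no vehicle peak, a make-up found in 7.50% of the regions that did not widen. In the remaining 48 regions (2.42%) the peaks of the conditions lay side by side without a shared base, so that nothing widened in place there. The median length of the 1034 separate LPC peaks was 603 bp (quartiles 480 and 765), and their median distance to the nearest vehicle peak was 229 bp. They carried 36.2% of the LPC-only bases of all widened regions, and 67.6% of those in the regions of mixed make-up.

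Most widened regions gained mainly on 1 side of their vehicle peaks, and few gained mainly between them. A region was called 2-sided when the lesser flank held at least 25% of the LPC-only bases outside the vehicle peaks, and filled when over 50% of the LPC-only bases lay between vehicle peaks. By this division 1297 regions (65.5%) gained on 1 side, 650 (32.8%) on both sides and 34 (1.72%) between their vehicle peaks. Among regions that did not widen the shares were 64.6%, 15.7% and 19.7%. The 64.6% takes in all regions left over by the other classes, also those with no LPC-only base. It is therefore not a share of gains on 1 side and cannot be set against the 65.5%. The 15.7% and 19.7% are shares of the same total, which includes regions with no LPC-only base. They are therefore not like for like with the 32.8% and 1.72% either. A gain in between requires 2 or more vehicle peaks, and 49.5% of the regions that did not widen had them. Filled gaps accounted for 3.44% of all LPC-only bases, while 49.2% lay to the left and 47.3% to the right in chromosome order. Regions that grew on both sides had a median ratio of 2.53 and those that grew on 1 side 2.47.

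The simplest layout, 1 vehicle peak overlapped by 1 LPC peak, was found in 931 widened regions. The vehicle peak had a median length of 476 bp there and the LPC peak 1229 bp, and in 739 of them (79.4%) the vehicle peak lay wholly inside. The LPC peak reached out by a median of 604 bp on its longer side and 115 bp on its shorter side. The longer side took a median of 84.7% of the extension, and in 195 regions (20.9%) the other side had none. It was the left side in 485 regions (52.1%). The middle of the vehicle peak lay a median of 244 bp from the middle of the LPC peak.

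Among the 10 regions with the largest net gain (bases covered after LPC minus bases covered in vehicle) both layouts occurred. All 10 were free of Olig2 peaks in vehicle and after LPC, as were 93.3% of all widened regions and 87.7% of those that did not widen. The largest gain was on chromosome 5 (169235397 to 169239073), where vehicle peaks covered 385 bp and LPC peaks 3604 bp, a ratio of 9.36. Its LPC peaks measured 873 and 2731 bp and put 2990 new bases to the left of the single vehicle peak and 229 to the right. The next was on chromosome 1 (190210564 to 190214891), with 506 bp in vehicle and 3682 bp in 3 LPC peaks. Chromosome 2 (202471861 to 202476113) went from 767 to 3624 bp, and its 5 LPC peaks extended to the left alone and left 193 vehicle bases uncovered on the right.

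Bases between vehicle peaks were the main part of the gain at 2 of these 10. On chromosome 3 (143797583 to 143802031), 1325 bp in 2 vehicle peaks stood against 4185 bp in 2 LPC peaks, and 1518 of the new bases lay between the vehicle peaks. On chromosome 2 (82715888 to 82719914), 1105 bp stood against 3786 bp, with 1752 new bases in between. At chromosome 1 (158368490 to 158372819), 1460 and 4273 bp were covered, and the new bases were shared among the left flank (873), the right flank (1156) and the interior (802).

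A single longer peak replaced a single shorter one on chromosome 13 (107154407 to 107157555), from 572 to 3149 bp, and on chromosome 6 (7876890 to 7879736), from 400 to 2847 bp. The chromosome 6 peak grew by 1028 bp on the left and 1419 bp on the right. The remaining pair had 3 LPC peaks each. They lay on chromosome 4 (150350234 to 150354584), from 808 to 3465 bp, and on chromosome 1 (76343470 to 76347129), from 472 to 3004 bp.

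**Figure D3:**
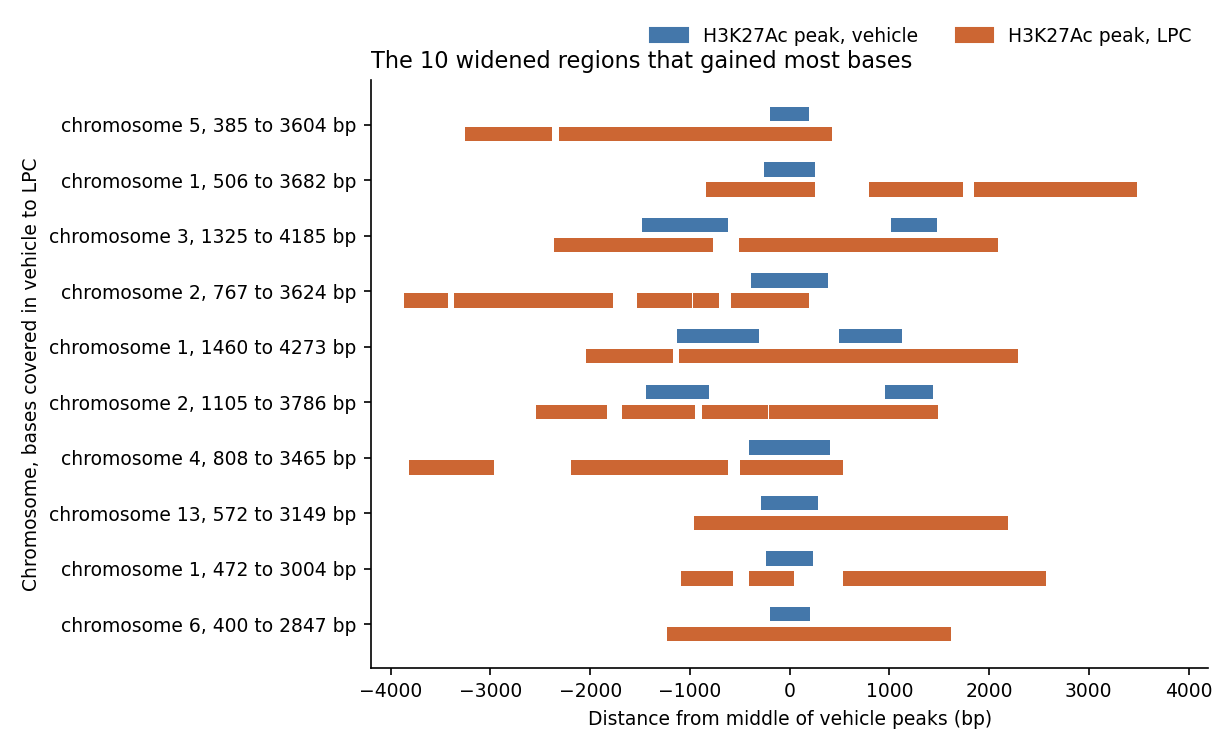
H3K27Ac peaks of the 10 widened regions with the largest net gain, drawn to scale as distance in bp from the middle of the region's vehicle peaks (x axis), with vehicle peaks in blue above LPC peaks in orange. Row names give the chromosome and the bases covered in vehicle and after LPC. The chromosome 13 and chromosome 6 regions each hold 1 LPC peak around 1 vehicle peak, while the others hold 2 to 5 LPC peaks.

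By ratio, the first region was on chromosome 10 (5072038 to 5074404), where a 247 bp vehicle peak lay in a 2367 bp LPC peak, a ratio of 9.58. All but 8 of its new bases lay to the right. The others were the first 2 regions by gain and 2 with little acetylation in vehicle, on chromosome 2 (184763 to 187871, 209 and 1548 bp) and chromosome 1 (36498033 to 36500144, 250 and 1849 bp). A vehicle peak of about 200 bp is near the shortest in the list (171 bp), so the ratios of such regions rest on few vehicle bases.

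Widened regions occurred on every autosome in a similar share of the shared regions. The share ran from 8.44% on chromosome 20 (95% interval 6.12 to 11.3, 41 of 486) to 11.5% on chromosome 7 (9.79 to 13.5, 139 of 1204). On all 20 autosomes the exact binomial 95% interval, which covers counting error only, held the value of the autosomes together, 9.92%. The share of narrowed regions ran from 0.92% on chromosome 17 to 2.49% on chromosome 18.

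The surroundings of widened regions differed little from those of other shared regions. The nearest other acetylated region was a median of 12.0 kb away, against 11.4 kb for regions that did not widen. An LPC-only region lay within 12.5 kb of 280 widened regions (14.1%), against 12.5% of the others, and a vehicle-only region within that distance of 7.42% and 8.04%. Another widened region was the nearest neighbour in 148 cases (7.47%), against 6.62% for the others. These values come from the same lists as the choice of regions and were not tested.

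Olig2 lists took no part in the choice of regions, so Olig2 gives a separate readout. Fewer widened regions carried Olig2 than other shared regions. A vehicle Olig2 peak overlapped 131 of 1981 widened regions (6.61%, exact 95% interval 5.56 to 7.80) and 2191 of 17985 others (12.2%, 11.7 to 12.7), beside 11.6% for all 19966 regions. The difference was -5.57 percentage points (Newcombe 95% interval -6.69 to -4.30). An LPC Olig2 peak overlapped 85 widened regions (4.29%, 3.44 to 5.28) and 8.00% of the others (7.60 to 8.40), beside 7.63% for all, a difference of -3.70 points (-4.61 to -2.65). These intervals cover counting error and treat regions as independent, and they say nothing about variation between cultures.

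That difference was much smaller among regions of like acetylated length in vehicle. Among other shared regions the share with a vehicle Olig2 peak was 5.85% from 300 bp to below 400 bp in vehicle and 15.0% at 1 kb or more, so the comparison was repeated within strata of length (Mantel-Haenszel difference with Sato interval). Within strata of the bases covered in vehicle, the difference (widened minus others) was -0.19 points for vehicle Olig2 (-1.51 to 1.14) and -0.09 points for LPC Olig2 (-1.18 to 0.99). No difference was detectable there, and the intervals exclude the -5.57 and -3.70 points seen without strata. With the limit at a ratio of 1.5 the difference for vehicle Olig2 in these strata was -1.66 points (-2.70 to -0.63), below 0, and in steps of 100 bp -0.55 points (-1.57 to 0.47). Among regions with 500 bp to below 700 bp in vehicle, for example, 49 of 642 widened (7.63%, 5.70 to 9.97) and 127 of 1914 others (6.64%, 5.56 to 7.84) held a vehicle Olig2 peak. Among those with 1 kb or more in vehicle, the shares were 16 of 113 (14.2%, 8.32 to 22.0) and 15.0% of the others (14.3 to 15.6).

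Within strata of span the difference was nearly as large as without any, at -4.58 points (-5.78 to -3.38). Span and vehicle length were not adjusted for together. Within strata of the bases covered after LPC, an analysis added after the first results, it was -6.32 points (-7.53 to -5.11), and -4.70 (-5.93 to -3.48) in steps of 100 bp. At 1 kb or more after LPC, 116 of 1652 widened regions (7.02%, 5.84 to 8.36) and 14.2% of the others (13.6 to 14.8) held a vehicle Olig2 peak. This stratum runs up to 5 kb, so lengths within it were not matched. Widened regions thus carried Olig2 less often than others within strata of length after LPC, for the Olig2 list of either condition. With the LPC Olig2 list the difference in these strata was -4.24 points (-5.23 to -3.25). By the rule, widened regions of a given LPC length are those with fewer bases covered in vehicle. This contrast is therefore not separate from that by vehicle length.

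**Figure D4:**
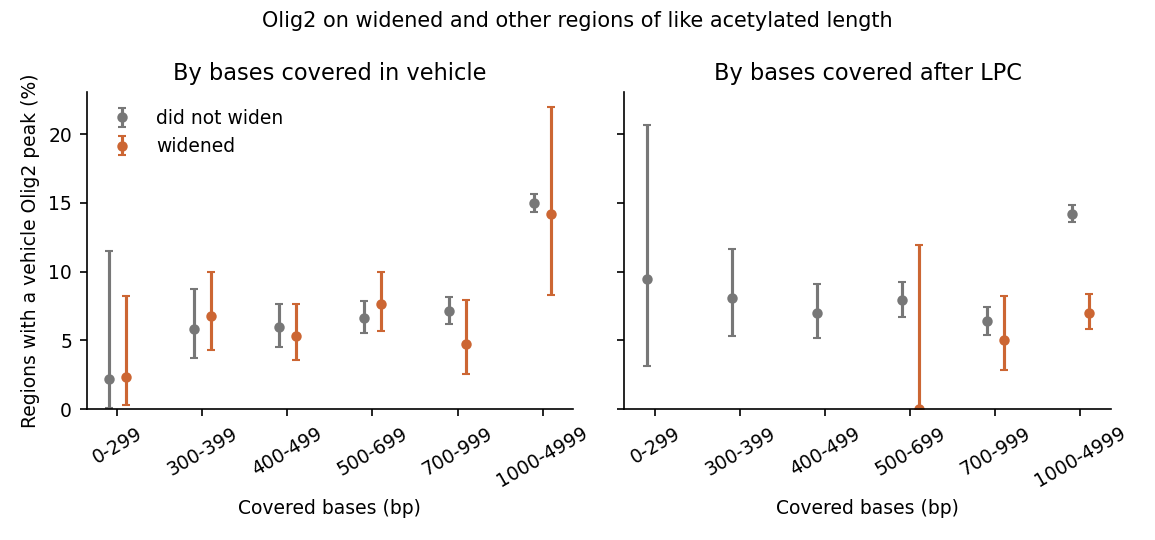
Share of regions with a vehicle Olig2 peak (y axis, percent) in widened (orange) and other (grey) shared regions, by bases covered by H3K27Ac peaks in vehicle (left) and after LPC (right), x axes in bp. Points are shares, bars are exact binomial 95% intervals, and groups of under 20 regions are left out. At 1 kb or more the shares were 14.2% and 15.0% by vehicle length, but 7.02% and 14.2% by LPC length. Those strata run up to 5 kb and do not match length within them.

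Above a ratio of 1.25 the share of regions with Olig2 was lower in each band than in the one before it. At ratios from 0.8 to 1.25, 14.1% (13.4 to 14.8) of 10291 regions held a vehicle Olig2 peak. The share was 9.79% (8.80 to 10.9) from 1.25 to 1.5, 7.66% (6.64 to 8.79) from 1.5 to 2, 6.75% (5.54 to 8.13) from 2 to 3 and 6.59% (4.46 to 9.33) from 3 to 5. The intervals of the bands from 1.5 to 5 overlapped. None of the 30 regions with a ratio of 5 or more held an Olig2 peak of either list (exact interval 0 to 11.6%, where 3 counts of 30 would be 10.0%). Narrowed regions carried a vehicle Olig2 peak in 47 of 322 cases (14.6%, 10.9 to 18.9), and the difference, widened minus narrowed, was -7.98 points (-12.4 to -4.35). Within strata of vehicle-covered bases it was -4.25 points (-9.53 to 1.02), no longer beyond counting error. Median bases covered in vehicle were 1528 bp in the band from 0.8 to 1.25 and 420 bp in that from 3 to 5. From 0.8 upward, vehicle length and Olig2 share thus fell together. Over all bands they did not match so closely. The bands below 0.5, from 0.5 to 0.8 and from 1.25 to 1.5 had similar vehicle medians of 1207, 1165 and 1159 bp. Their shares with a vehicle Olig2 peak were 14.6%, 11.2% and 9.79%.

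**Figure D5:**
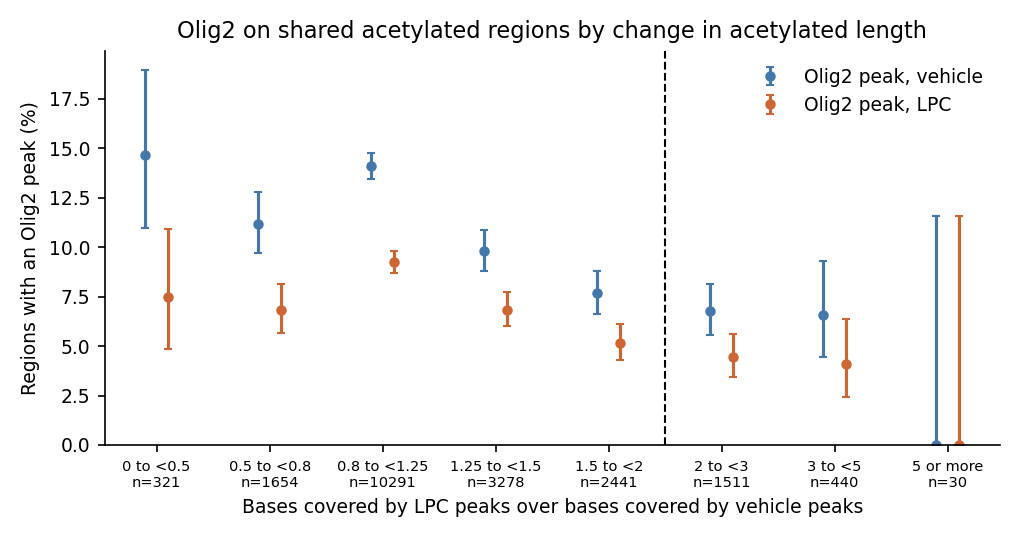
Share of shared autosomal regions with an Olig2 peak (y axis, percent) by the ratio of bases covered by H3K27Ac peaks after LPC to those in vehicle (x axis, n regions under each band), for the vehicle (blue) and LPC (orange) Olig2 lists. Bars are exact binomial 95% intervals, and the dashed line marks the ratio of 2. Vehicle Olig2 shares stand at 14.1% for ratios of 0.8 to 1.25 and at 6.75% for 2 to 3.

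Out of all regions, no difference was detectable in the share with Olig2 nearby but not on them. A vehicle Olig2 peak lay within 12.5 kb of 159 widened regions without touching them (8.03%, 6.87 to 9.31) and of 7.72% of the others (7.33 to 8.12), a difference of 0.31 points (-0.88 to 1.64). For the LPC Olig2 list the values were 5.70% and 5.37%, a difference of 0.34 points (-0.66 to 1.49). Regions with Olig2 on them stayed in the totals but could not be counted as having it nearby. For vehicle Olig2 they were 6.61% of widened regions and 12.2% of the others, so the shares were lowered unequally. Shares among regions without Olig2 on them were not computed.

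Widened regions kept their Olig2 peaks about as often as other regions. Of the 131 vehicle Olig2 peaks on widened regions, 83 (63.4%, 54.5 to 71.6) overlapped an LPC Olig2 peak. The share was 64.5% (62.4 to 66.4) for the 2214 on other shared regions and 64.1% for all autosomal vehicle Olig2 peaks. The difference was -1.09 points (-9.84 to 6.92). The 47 peaks on narrowed regions were kept in 24 cases (51.1%, 36.1 to 65.9), and the difference of 12.3 points (-3.81 to 28.1) was not detectable at this number. By region, 83 widened regions held Olig2 peaks of both lists, 48 (2.42%) of vehicle alone, 2 (0.10%) of LPC alone and 1848 of neither. Among regions that did not widen, 4.30% held Olig2 peaks of vehicle alone and 0.12% of LPC alone. The LPC Olig2 list was smaller as a whole, with 3229 peaks against 4965 in vehicle.

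Olig2 peaks on widened regions were more often shorter than longer after LPC, as on other regions. Of the 83 pairs of a vehicle and an LPC Olig2 peak on widened regions, the LPC peak was the longer in 26 (31.3%, 21.6 to 42.4). The median Olig2 peak length there was 1122 bp in vehicle and 1018 bp after LPC, and the median ratio 0.89. Over the whole Olig2 lists the median lengths were 1058 bp in vehicle and 1001 bp after LPC. On shared regions that neither widened nor narrowed, the LPC Olig2 peak was the longer in 30.1% (27.7 to 32.6) of 1398 pairs, and the median ratio was 0.94.

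Many Olig2 peaks on widened regions were centred on LPC-only bases, but not beyond the share of such bases in the span. Of the 128 vehicle Olig2 midpoints inside these regions, 60 (46.9%, 38.0 to 55.9) lay on bases acetylated after LPC alone and 52 (40.6%, 32.0 to 49.7) on bases acetylated in both lists. In the regions concerned, these kinds of base made up 57.3% and 35.0% of the span. The interval for LPC-only bases lay just below their share of the span with this list. A further 6 midpoints lay on vehicle-only bases and 10 in gaps. On regions that did not widen, 11.3% (9.95 to 12.7) of the vehicle Olig2 midpoints lay on LPC-only bases, which made up 14.7% of the span. Of the 84 LPC Olig2 midpoints inside widened regions, 44 (52.4%, 41.2 to 63.4) lay on LPC-only bases, which made up 56.9% of the span, so no shortfall was detectable with the LPC list.

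In the 931 regions with 1 vehicle and 1 LPC peak, Olig2 was centred nearer to the middle of the LPC peak than to that of the vehicle peak. The 65 vehicle Olig2 midpoints there lay a median of 296 bp from the middle of the vehicle H3K27Ac peak and 120 bp from the middle of the LPC H3K27Ac peak. Only 18 of them (27.7%, 17.3 to 40.2) were nearer to the vehicle middle, which was nearer to 39.8% of the bases of these regions. The upper bound of the interval lies just above that share of bases. For the 45 LPC Olig2 midpoints, 8 (17.8%, 8.00 to 32.1) were nearer to the vehicle middle, against 39.5% of bases. In regions that neither widened nor narrowed, 44.6% (41.0 to 48.3) of 742 vehicle midpoints were nearer to the vehicle middle, against 48.6% of bases. In the 99 narrowed regions of this layout, 19 vehicle midpoints lay a median of 165 bp from the vehicle middle and 308.5 bp from the LPC middle. There 13 of them (68.4%, 43.4 to 87.4) were nearer to the vehicle middle, against 57.6% of bases. Of the LPC midpoints in narrowed regions, 3 of 8 were (37.5%, 8.52 to 75.5). Nearness to the LPC middle was thus not seen with the vehicle Olig2 list in narrowed regions.

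Regions that gained on 1 side and on both sides differed slightly in Olig2. A vehicle Olig2 peak lay on 98 of 1297 regions that grew on 1 side (7.56%, 6.18 to 9.13) and on 31 of 650 that grew on both (4.77%, 3.26 to 6.70), a difference of -2.79 points (-4.88 to -0.46) for both sides minus 1 side. With the LPC Olig2 list the difference was -1.32 points (-3.04 to 0.65). Regions whose LPC peaks all overlapped a vehicle peak held a vehicle Olig2 peak in 7.26% and those with separate LPC peaks in 5.96%, a difference of 1.31 points (-0.96 to 3.52). These comparisons were not adjusted for length.

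Single regions show the arrangements behind these counts. Among widened regions with an LPC Olig2 peak, the largest net gain was on chromosome 3 (155863050 to 155867385), from 1513 to 3466 bp. Its Olig2 peak, 1330 bp in vehicle and 1024 bp after LPC, lay over the left part that was acetylated in both conditions, and most of the gain was the 2008 bp LPC H3K27Ac peak on the right. On chromosome 19 (41617620 to 41621180) the order was the opposite. The vehicle H3K27Ac peak covered 1307 bp on the right, a separate LPC H3K27Ac peak of 1864 bp stood on the left, and the Olig2 peaks of vehicle (41617985 to 41619592) and LPC (41618048 to 41619920) lay over the left one, the LPC peak reaching to the edge of the right one. That site thus held Olig2 in vehicle, where no acetylation was called over it, and both marks after LPC.

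On chromosome 10 (97430598 to 97432919) a 613 bp vehicle H3K27Ac peak lay within a 2322 bp LPC peak, and the Olig2 peaks measured 1465 bp in vehicle and 1462 bp after LPC. Of the 5 regions, the one on chromosome 2 (160112463 to 160115830) was the least changed, with 1658 and 3325 bp and an Olig2 peak of 1413 bp in vehicle and 1227 bp after LPC. The Olig2 peaks on chromosome 10 therefore differed by 3 bp in length while the acetylated length there was 3.79 times as great.

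Only 2 widened regions held an Olig2 peak that was called after LPC alone, and both were on chromosome 4. At 75894482 to 75898292 the vehicle H3K27Ac peak of 1399 bp was matched by an LPC peak of 1347 bp, and a second LPC H3K27Ac peak of 1851 bp stood to its left. The LPC-only Olig2 peak (75894711 to 75896326, 1616 bp) lay wholly within that second peak, so Olig2 and H3K27Ac were called there together after LPC and neither in vehicle. The next acetylated region, 2095 bp to the right (75900388 to 75904307), was called in vehicle alone. At 135692118 to 135693375 a vehicle H3K27Ac peak of 517 bp lay within an LPC peak of 1258 bp, and the LPC-only Olig2 peak measured 839 bp. LPC-only Olig2 peaks lay on 0.10% of widened regions (0.01 to 0.36) and 0.12% of the others (0.08 to 0.19).

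Of the 48 widened regions with a vehicle Olig2 peak alone, the largest net gain was on chromosome 8 (52956169 to 52959991). There a vehicle H3K27Ac peak of 1712 bp lay within an LPC peak of 3823 bp, and the vehicle Olig2 peak of 1172 bp sat inside the part acetylated in both. The next were on chromosome 6 (123538799 to 123541725, from 787 to 2487 bp), chromosome 5 (49210864 to 49213024, 610 to 2157 bp), chromosome 1 (94962147 to 94964251, 673 to 2105 bp) and chromosome 7 (122425948 to 122429614, 1300 to 2699 bp). At all 5 the acetylated length was greater in the LPC list while no Olig2 peak was called in it, and a peak absent from a list may lie just under its threshold.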

How the data were processed

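Chromatin immunoprecipitation sequencing was done with 2 antibodies in 2 conditions, 1 library each. For each library the authors deposited a list of peak positions in bp (3 columns: chromosome, start, end) without score, height or read count. MACS 1.4.2 and build rn4 are named per the submitters' processing notes. Aligner, control library, threshold and depth: not given in the sources used here. Libraries were run on a 5500xl SOLiD sequencer, per the labels' protocols.

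Starts were read as 0-based and are printed 1-based. Covered bases were counted per list, and overlap meant at least 1 bp. Python 3.11.15 scripts, with SciPy 1.17.1 for intervals, pandas 2.3.3 for tables and numpy 2.4.6, differed from bedtools 2.31.1 by 0 regions and was tested on simulated lists. Shares carry Clopper-Pearson 95% intervals, differences Newcombe or, over strata, Mantel-Haenszel ones. Span strata were cut at 1000, 1500, 2000, 3000 and 4000 bp and covered bases at 300, 400, 500, 700 and 1000 bp. With 1 library per group no p-value was computed. Regions named are the 10 with the largest net gain, the 5 with the highest ratio, the 5 with the largest gain among those with an LPC Olig2 peak and among those with a vehicle one alone, all with an LPC-only Olig2 peak, and 2 on each side of the limit. The regions and rules were chosen with earlier results of these data known. No rn4 sequence was used here. Alternatives changed the joining distance, ratio, span limit, scaling, gap filling and the Olig2 overlap.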

Additional observations from a re-analysis of the deposited data

Results flagged for a closer look

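Chromosome X was left out of the regions described. Under the same rule 57 of its 428 shared regions below 5 kb widened (13.3%, exact 95% interval 10.2 to 16.9) and 6 narrowed, beside 9.92% and 1.61% on the autosomes. The median ratio of covered bases was 1.17 on X and 1.15 on the autosomes. It is listed because it is a signal in data outside the comparisons above, and no test of the difference was made.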

How the results depend on the processing

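The lower Olig2 share of widened regions kept its direction, with intervals below 0, under 14 alternatives for each of 3 values: from -6.83 to -4.28 points for vehicle Olig2, from -4.65 to -2.93 for LPC Olig2, and from -5.60 to -3.66 over strata of span. Over strata of vehicle-covered bases the value turned above 0 with joining at 500 bp (0.12), a ratio of 3 (0.35), spans below 3 kb (0.076), 50% of the Olig2 peak inside (1.21), long Olig2 peaks (0.60) and strata of 100 bp (0.25), none with an interval above 0. At a ratio of 1.5 it was -1.66 (-2.70 to -0.63), and with strata of 100 bp as well -0.55 (-1.57 to 0.47). The difference in Olig2 peaks kept ran from -5.38 to 3.28 points, the latter with the LPC total scaled, and its interval held 0 in each of 12 alternatives. The number of widened regions was 4422 at a ratio of 1.5, 470 at 3, 1030 with at least 500 bp in vehicle and 1206 with the LPC total scaled. Narrowed regions then numbered 988, 51, 322 and 583. The share that gained on 1 side was 61.1% at a ratio of 3, 61.7% with at least 500 bp in vehicle and 68.9% with gaps of at most 500 bp filled. The share with a separate LPC peak, 46.5% as reported, was 42.8% and 49.2% with joining at 500 bp and 2 kb, 36.6% and 56.0% at ratios of 1.5 and 3, 44.2% for spans below 3 kb, 51.0% with gaps filled, 49.5% with at least 500 bp in vehicle and 52.0% scaled. Vehicle Olig2 midpoints on LPC-only bases were 35.4% at a ratio of 1.5 and 37.7% with at least 500 bp in vehicle. At a ratio of 1.5, 4422 of the 19966 shared regions were widened, and the highest share of an autosome was 24.2%. At a ratio of 2, 1981 of them were widened, and the highest share was 11.5%. With joining at 2 kb 46.3% of widened regions had a neighbour within 12.5 kb, against 51.1%. By construction, joining at 2 kb takes neighbours up to 2 kb away into the region. Every narrowed region had at least 508 bp in vehicle, so the floor of 500 bp left all 322. No other cause of these shifts was tested, beyond the ratios and strata being other limits. The strata of LPC-covered bases and of 100 bp, and the limits to overlapping or single peaks, were chosen after seeing the data. No paired analysis was possible because each group is 1 library, and no replicate could be left out. Without depths or scores, a peak just under a threshold cannot be told apart from an absent one.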

Other observations

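Widened regions mostly stood singly among the shared regions below 5 kb of their chromosome. They were 9.92% of those regions, a share at which runs are uncommon by number alone. Of the uninterrupted runs of widened regions, 1582 held 1 region, 152 held 2, 25 held 3 and 5 held 4. The most compact run of 4 lay on chromosome 7 (139970087 to 140017349, 47.3 kb). A run of 70.4 kb lay on chromosome 8 (45405232 to 45475669), one of 77.9 kb on chromosome 3 (41388155 to 41466084) and one of 79.0 kb on chromosome 17 (85013132 to 85092175), and the run on chromosome 2 (83125410 to 83542912) spanned 418 kb. The most compact run of 3 lay within 21.7 kb on chromosome 18 (56667302 to 56689019). No test was made of these runs. Regions of 5 kb or more were outside the rule, and 9 of the 843 on autosomes reached a ratio of 2.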
